A study of Rattus norvegicus with 39 samples.

Results

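The livers of 5 rats given NMF were compared with the livers of 5 rats given Caerulein, 2 agents that were injected in the same vehicle and by the same route. These 10 arrays are 10 of the 39 in the series, and they were chosen by their titles alone, with no measured value in the choice. NMF, N-methylformamide, was given at 1000 mg/kg in saline i.p., and Caerulein at 50 µg/kg in saline i.p. All the rats were between 5 and 6 weeks of age, and the left lateral lobe was taken 48 h after treatment and frozen. RNA from each liver was hybridised to 1 Affymetrix rat genome array, and the titles number the 5 arrays of a group as biological replicates. The 9 untreated controls of the series served as background, and for these the labels name no vehicle and no injection. Strain and sex are not given in the sources used here. No group given saline alone is among the labels, so that agent and dose were compared together and each group's distance from untreated liver includes vehicle and injection.

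N-methylformamide is a solvent that injures the liver of rodents. It is oxidised mainly by the cytochrome P450 CYP2E1, the reactive product binds glutathione, and the conjugate leaves the body as a mercapturic acid. Electrophiles of this kind modify KEAP1, which then releases the transcription factor NRF2, and NRF2 binds antioxidant response elements in front of genes for glutathione synthesis, glutathione transfer, quinone reduction and conjugate export. Caerulein is a peptide analogue of cholecystokinin that drives the acinar cells of the pancreas to secrete and is used to induce pancreatitis. The liver is therefore the main target of the first agent and not of the second.

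The genes of the NRF2 and glutathione lists that the results below turn on include several with the antioxidant response element core, TGACNNNGC, close to their start. The core was searched on both strands of the RefSeq promoter windows of build GRCr8, each of 300 bases from 250 before the start to 50 after it, and it can overlap the AP-1 motif, which was not searched. The stretches are shown, with the core in capitals and in the direction of the gene, so that genes higher in NMF can be read beside others with the same core that were not. They were chosen after the values had been seen. Of the genes below, the first 4 were called higher in NMF, Ephx1 and Me1 were not called, and Gstm7 was called lower.
Gpx2, chr6:101230017-101230067, minus strand: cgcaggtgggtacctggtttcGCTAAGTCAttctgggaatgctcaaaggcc
Gsta3, chr9:31154951-31155001, plus strand: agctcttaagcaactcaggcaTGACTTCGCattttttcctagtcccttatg
Gstp1, chr1:210769737-210769787, minus strand: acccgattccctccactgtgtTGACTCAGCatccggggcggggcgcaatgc
Gclm, chr2:213031942-213031992, plus strand: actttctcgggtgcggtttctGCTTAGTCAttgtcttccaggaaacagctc
Ephx1, chr13:95263145-95263195, minus strand: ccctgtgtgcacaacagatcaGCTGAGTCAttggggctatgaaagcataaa
Me1, chr8:96540382-96540432, minus strand: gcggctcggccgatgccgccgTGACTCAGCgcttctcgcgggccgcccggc
Gstm7, chr2:198260304-198260354, minus strand: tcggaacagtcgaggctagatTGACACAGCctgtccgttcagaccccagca

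Gstp1 and Me1 hold the same 9 letters, and Ephx1 holds them on the opposite strand. The log2 differences of Gstp1, Me1 and Ephx1, NMF minus Caerulein, were 3.77, -0.48 and 1.08. The core stood in 12.1% of all promoter windows, 4038 of 33469, and in 14.1% of the windows of the genes tested. Among the measured genes of the NRF2 list it stood in 33.3% of the windows (8 of 24), and in 4 of the 9 windows of members called higher. Of the windows of the 4 aldo-keto reductases called higher in NMF, 0 held the core. A match describes the letters of the window and does not show a site in use, and a window without the letters says nothing about the factor.

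The 10 arrays were close in mean intensity, at 347.8 to 356.9. Their medians were less alike, from 77.8 (NMF 4) to 108.7 (Caerulein 5). Hepatocyte markers were among the brightest genes on every array, with albumin at 14.39 to 14.50 (log2 intensity). Each array correlated better on average with its own group (r of 0.955 to 0.976 over genes) than with the other (0.936 to 0.961). The array NMF 3 stood apart in its RNA quality controls. Its GAPDH 3′ probe set read 5.70 above the 5′ probe set (log2), against 0.14 to 0.52 on the other 9 arrays, and its β-actin probe sets differed by 2.38. NMF 3 was kept, and each named call and each count of a gene list that changed without it is given both ways. Arrays 4 and 5 of the untreated controls were also low in the GAPDH 5′ probe set, at 7.42 and 6.34. Since whole tissue was measured, fewer cells of a type and less RNA per cell cannot be told apart in any value below.

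NMF and Caerulein livers differed in 781 of 14217 genes, 5.49% of those tested (limma, adjusted p under 0.05). In NMF, 488 genes were higher (3.43%) and 293 were lower (2.06%). These shares are the background for the counts of every gene list below. Among called genes whose arrays did not overlap, the 5 with the largest differences higher in NMF were Akr1b8, Abcc3, Gsta3, Gpx2 and Akr7a3, and the 5 lower were Fmo1, Stac3, Akr1c1, Nrep and Scd. The median difference of called genes was 1.73-fold for those higher and 1.82-fold for those lower, and 154 and 106 genes differed at least 2-fold. At least 4-fold differences were found for 22 genes higher and 28 lower in NMF.

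For 1279 genes, 9.0% of those tested, every NMF array lay on the same side of every Caerulein array, and 643 of these genes were called. Probe sets with no gene symbol or several were tested apart, and 64 of 10216 (0.626%) were called. Over all genes the median log2 difference was -0.05, with 6178 genes above 0 and 8039 below. When each array was centred on its median, 646 genes were called higher and 227 lower, so that the split between directions depended on the scaling. Without NMF 3, 734 genes were called, and 638 of the 781 kept their call and direction. Without NMF 4 the count was 513, the lowest of the 10 counts with 1 array left out.

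Caerulein livers were not distinguished from untreated livers in any gene by limma (0 of 14217 called, 0.0%), with 541 genes at an unadjusted p under 0.05. Array weights gave 5 calls in that comparison, Pkp2, Pla2g12a and Zfp709l1 higher and Slc39a4 and Spon2 lower in Caerulein, and leaving out Caerulein 3 gave 1, Slc39a4 (log2 difference -1.03, adjusted p = 0.0351). NMF livers differed from the same untreated livers in 1063 genes (7.48%). Both comparisons share the 9 controls, and they are given side by side as a description. Of the 488 genes called higher in NMF than in Caerulein, the NMF mean lay farther from the untreated mean than the Caerulein mean did for 450. The same held for 279 of the 293 called lower. The NMF and Caerulein means lay on opposite sides of the untreated mean for 414 of the 488 and for 187 of the 293. These genes were chosen for a difference between NMF and Caerulein, and that choice by itself favours means on opposite sides. The matching shares over all genes were not computed, for the farther mean or for opposite sides. Of these called genes, 0 were called by limma between Caerulein and untreated liver in the direction opposite to NMF. The counts therefore do not show that Caerulein moved these genes. The plot of both groups against untreated liver shows both means for the 24 genes with the largest differences.

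**Figure D1:**
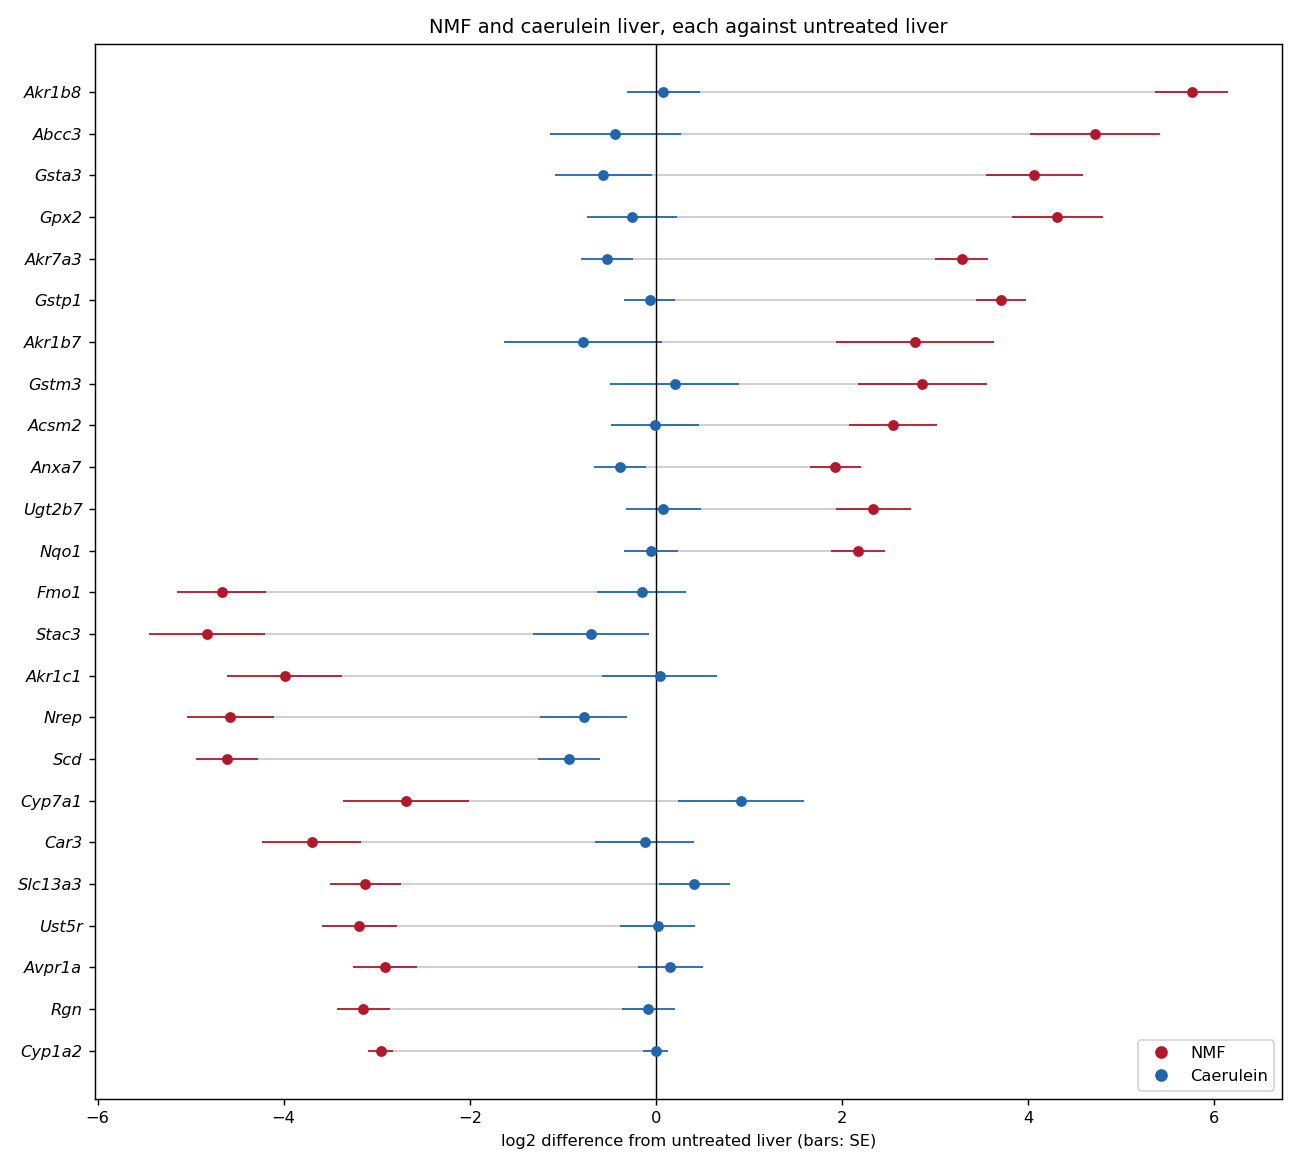
Log2 difference of the NMF mean (red) and the Caerulein mean (blue) from the mean of 9 untreated livers, for the 12 genes per direction with the largest NMF minus Caerulein difference; bars are limma's SE, and the grey line joins the 2 groups of a gene. Akr1b8 lay 5.76 above untreated liver in NMF and 0.08 above it in Caerulein, and for Cyp7a1 the groups lay on opposite sides, at -2.69 and 0.91.

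The largest difference of the whole comparison was that of Akr1b8, an aldo-keto reductase that reduces lipid aldehydes. It read 12.88, 10.78, 10.55, 12.15 and 12.61 in NMF arrays 1 to 5, against 6.03, 6.11, 5.78, 5.94 and 6.72 in Caerulein arrays 1 to 5. Every NMF array was above every Caerulein array by more than the spread of either group, and the Caerulein arrays lay inside the range of untreated liver (5.38 to 7.53). The difference was 5.68 ± 0.45 (log2, SE), or 51.2-fold, with an adjusted p of 2.78e-11. Akr7a3, an aflatoxin aldehyde reductase, was 14.0-fold higher, with NMF arrays between 13.43 and 13.86 and Caerulein arrays between 9.03 and 10.55 (adjusted p = 1.12e-10). Akr1b7 was spread much more widely among the NMF arrays, at 12.24, 7.26, 7.78, 11.22 and 11.86, than among the Caerulein arrays, at 6.77, 7.06, 6.78, 6.15 and 5.78. NMF 2 and NMF 3 were only just above the Caerulein arrays, and they lay inside the range of untreated liver (5.33 to 9.70). Its difference of 3.57 ± 0.96 had an adjusted p of 0.0205, which was 0.085, 0.0671, 0.0749 and 0.0524 without NMF 1, NMF 4, NMF 5 and Caerulein 5.

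The aldo-keto reductases did not share a direction. Of 14 measured, 4 were higher and 2 lower in NMF, and the median log2 difference was 0.22. Akr1a1, the general aldehyde reductase, was 1.47-fold higher (0.56 ± 0.11, adjusted p = 0.000674). Akr1c1, a hydroxysteroid dehydrogenase, was 16.3-fold lower. It read 8.53, 5.21, 6.88, 6.16 and 5.97 in NMF and 10.41, 9.16, 10.85, 10.97 and 11.50 in Caerulein (-4.03 ± 0.70, adjusted p = 0.000232). Its groups did not overlap, although NMF 1 came within 1 log2 unit of Caerulein 2. Akr1c3 was also lower (-1.58 ± 0.47, adjusted p = 0.0416), and that call was lost without any 1 of 8 arrays (NMF 1, 2 or 4, or any Caerulein array), with adjusted p values of 0.0522 to 0.112. Probe sets for close relatives of this family may share signal.

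**Figure D2:**
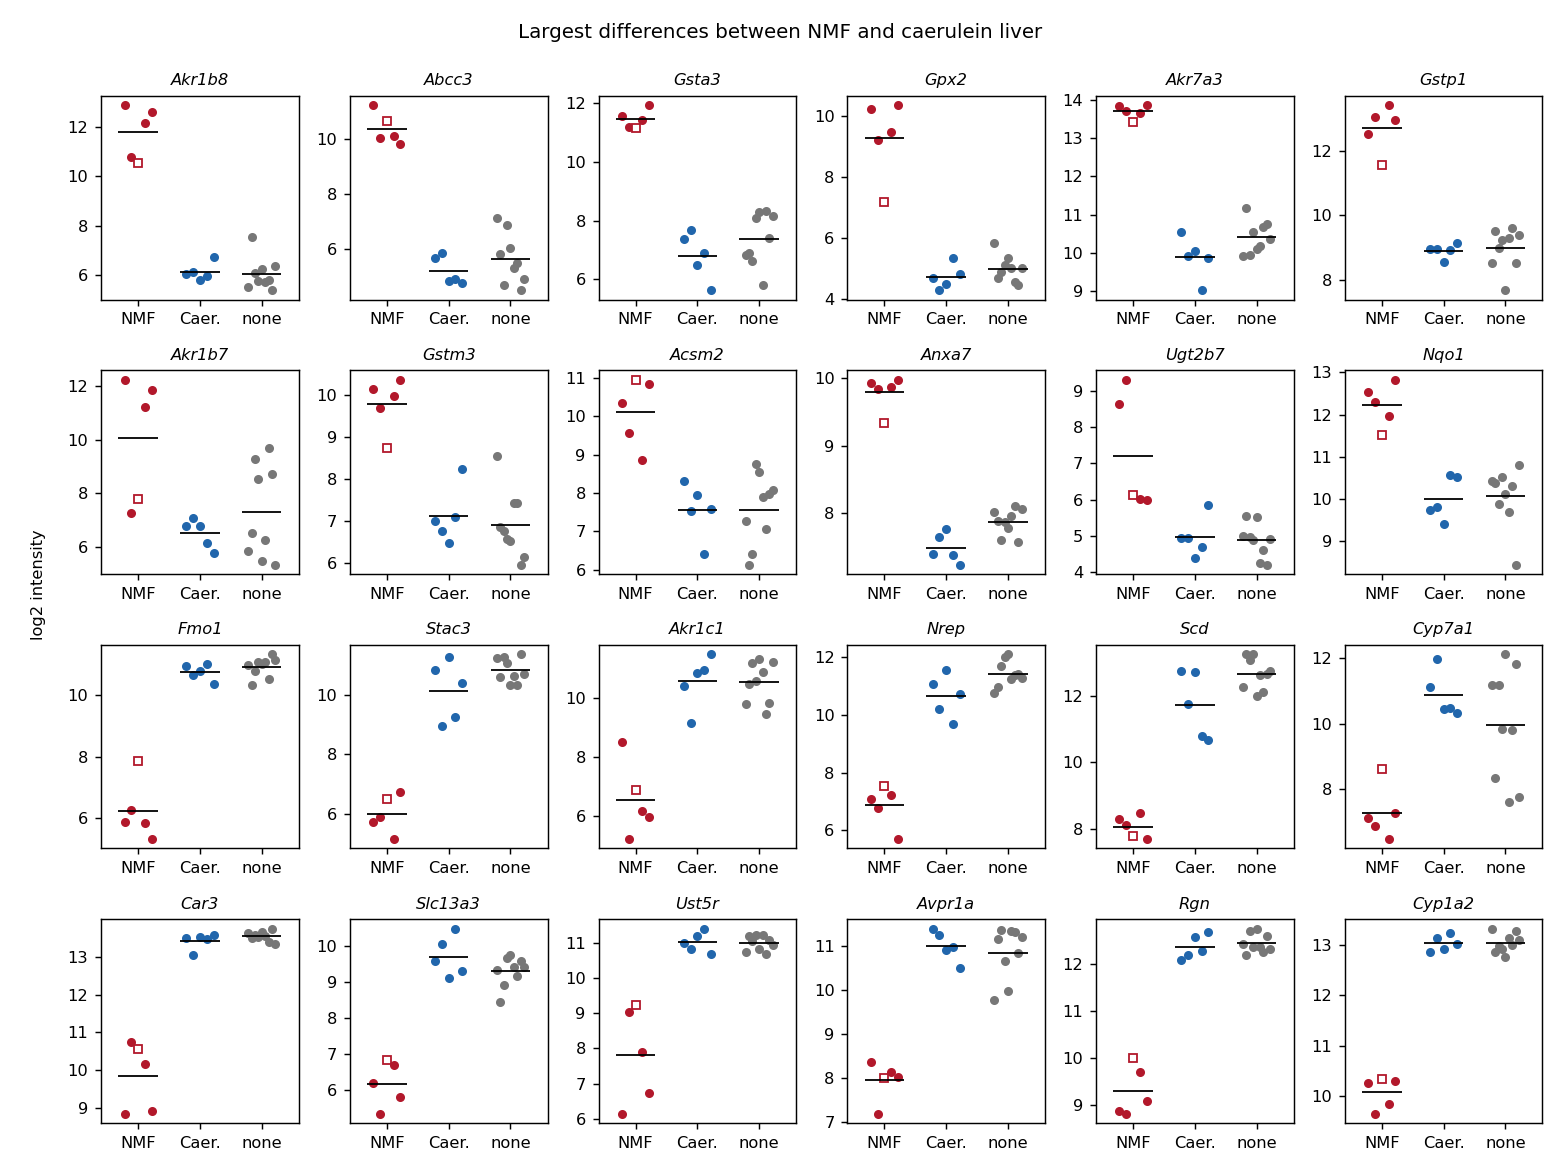
Log2 intensity of the 24 genes with the largest differences on every NMF, Caerulein (Caer.) and untreated (none) array, with a bar at each group mean; each panel has its own vertical axis, and the open square is NMF 3. The NMF arrays lie apart from the Caerulein arrays in every panel, which is how the genes were chosen, while the spread within NMF is wide for Akr1b7 (7.26 to 12.24) and narrow for Akr7a3 (13.43 to 13.86).

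Genes of glutathione supply and other NRF2 targets were higher in NMF as far as they were called. Of 24 measured, 10 were called higher and 0 lower, where 5.49% of all genes were called. The arrays of 11 did not overlap, all higher in NMF, against 9.0% of all genes without overlap. The median log2 difference of the list was 0.86, against -0.05 for all genes. Gpx2, a glutathione peroxidase of epithelial cells, read 10.25, 9.21, 7.19, 9.48 and 10.37 in NMF and 4.69, 4.28, 4.49, 5.35 and 4.82 in Caerulein. NMF 3 was the lowest NMF array and still above all Caerulein arrays, which lay close to the level of 26 probe sets for bacterial spike-in genes (means of 3.49 to 4.70; 1 further probe set, at 6.47, was left out of this range). Caerulein 1, 2 and 3 lay within that range, so no fold is given. The log2 difference was 4.57 ± 0.55 (adjusted p = 5.73e-07), and 5.10 without NMF 3. Nqo1, the quinone reductase that is the classic NRF2 target, was 4.66-fold higher. Its NMF arrays read 12.54, 12.30, 11.51, 11.96 and 12.83 and its Caerulein arrays 9.73, 9.81, 9.41, 10.57 and 10.52, with no overlap (2.22 ± 0.33, adjusted p = 1.81e-05).

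Both subunits of glutamate-cysteine ligase, which makes the first step of glutathione synthesis, were measured. The modifier subunit Gclm read 11.62, 11.38, 10.71, 11.42 and 11.84 in NMF and 9.90, 9.98, 9.63, 9.82 and 9.44 in Caerulein, a 3.11-fold difference (1.64 ± 0.29, adjusted p = 0.000266). The catalytic subunit Gclc read 10.96, 11.08, 10.26, 10.71 and 10.90 against 9.92, 9.88, 10.18, 9.52 and 9.72. Its arrays did not overlap, but the difference of 0.94 ± 0.30 had an adjusted p of 0.0609, and of 0.0413 without NMF 3. Among the other members called were Ugdh, which makes UDP-glucuronic acid (2.73-fold), Cbr1, a carbonyl reductase (2.01-fold), and Taldo1, transaldolase of the pentose phosphate pathway (1.70-fold). Srxn1, sulfiredoxin, was 3.49-fold higher (adjusted p = 0.0154, and 0.0505 without NMF 1), while another of its probe sets had the opposite sign.

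Some targets often named with NRF2 did not pass the test. Hmox1, heme oxygenase, read 10.06, 10.46, 10.51, 10.33 and 9.53 in NMF and 9.69, 10.33, 9.52, 11.39 and 11.08 in Caerulein, so that the groups overlapped (-0.22 ± 0.47, adjusted p = 0.874). Ephx1, microsomal epoxide hydrolase, read 13.87, 13.88, 12.23, 13.82 and 13.94 in NMF and 12.85, 12.48, 12.28, 12.49 and 12.26 in Caerulein. NMF 3 fell just below every Caerulein array, while the other NMF arrays lay above all of them. The adjusted p was 0.127 with NMF 3 and 0.0336 without it (2.65-fold). Without NMF 3, 14 members of the list were called higher, the 4 added being Gclc, Ephx1, Txnrd1, thioredoxin reductase (adjusted p = 0.0286), and Tkt, transketolase (0.0188). The transcripts of the regulators did not pass the test, with log2 differences of 0.41 ± 0.34 for Nfe2l2, which encodes NRF2 (adjusted p = 0.604), and 0.04 ± 0.21 for Keap1 (adjusted p = 0.956).

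The glutathione transferases, which attach glutathione to electrophiles, were mostly higher in NMF where they were called. Of 21 measured, 6 were higher and 1 lower, with a median log2 difference of 0.48. Without NMF 3, 7 were higher, Gsta1 being added (1.34-fold, adjusted p = 0.0434). Gsta3 read 11.56, 11.21, 11.14, 11.41 and 11.93 in NMF and 7.37, 7.70, 6.49, 6.89 and 5.63 in Caerulein. The NMF arrays were tightly grouped and the Caerulein arrays spread over the range of untreated liver, 5.83 to 8.34, with Caerulein 5 below it. The difference was 24.8-fold (4.63 ± 0.59, adjusted p = 1.63e-06). Gstp1, a transferase that is scarce in normal rat hepatocytes and marks preneoplastic foci, read 12.50, 13.05, 11.55, 13.40 and 12.95 in NMF and 8.96, 8.97, 8.55, 8.94 and 9.16 in Caerulein. It was 13.7-fold higher without overlap (3.77 ± 0.31, adjusted p = 5.46e-11).

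The mu class of transferases went in both directions. Gstm4 was 2.25-fold and Gstm1 1.76-fold higher in NMF, with adjusted p values of 0.00015 and 0.00117. Gstm3 was 6.33-fold higher in the comparison of all arrays (2.66 ± 0.78, adjusted p = 0.0369). Its call was lost in 8 of the 10 comparisons with 1 array left out, that is, without any array but NMF 3 or Caerulein 5, at adjusted p values of 0.0592 to 0.0862. Gstm7 was 2.72-fold lower, reading 9.74, 9.70, 10.02, 9.12 and 9.35 in NMF and 11.43, 10.60, 11.11, 10.94 and 11.08 in Caerulein (-1.45 ± 0.32, adjusted p = 0.00399). Transferases of a class are similar in sequence, and how far their probe sets share signal was not tested. In the mercapturate pathway, which trims glutathione conjugates, 1 of 12 measured genes was called, where 5.49% of all genes were called. That gene was Acy1, an aminoacylase, at 1.67-fold higher (0.74 ± 0.16, adjusted p = 0.00211).

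Of 19 hepatocyte transporters measured, 4 were higher and 7 lower in NMF. The 4 higher were export pumps, and export pumps were also among the 7 lower. Abcc3 and Abcc2 are also counted in the NRF2 list above. Abcc3, which exports conjugates to the blood, read 11.23, 10.04, 10.66, 10.10 and 9.84 in NMF and 5.70, 5.87, 4.84, 4.92 and 4.77 in Caerulein. The groups were far apart, and the difference was 35.6-fold (5.15 ± 0.79, adjusted p = 4.08e-05). Caerulein 3, 4 and 5 stood just above the spike-in range (3.49 to 4.70), where the size of a fold is poorly measured. Abcc2, which exports conjugates to the bile, was 2.52-fold higher (1.33 ± 0.23, adjusted p = 0.000216), and Abcc4 was 2.37-fold higher (1.24 ± 0.27, adjusted p = 0.00262). The Caerulein arrays of Abcc4, at 4.91 to 5.15, were also near the spike-in range, and NMF 3, at 5.075, lay below Caerulein 4. Abcb1a, a multidrug pump, was 3.01-fold higher with an adjusted p of 0.0159, which was 0.0558 without Caerulein 5.

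The 7 transporters called lower were carriers of the SLC families and the ABC proteins Abcb11 and Abcc6. Slco1a4, which takes up organic anions, read 8.50, 8.40, 9.80, 9.21 and 7.90 in NMF and 11.45, 11.41, 11.25, 11.63 and 10.22 in Caerulein. Caerulein 5 was the lowest of its group and remained above every NMF array, and the difference was 5.39-fold (-2.43 ± 0.31, adjusted p = 1.69e-06). Slc22a8, an organic anion transporter, was 3.05-fold lower (adjusted p = 0.000357), and Slco1a1 was 2.93-fold lower (adjusted p = 0.0167, but 0.0633, 0.0642 and 0.051 without NMF 1, NMF 5 and Caerulein 2). Slco2b1, Slco1b2, Abcc6 and Abcb11, the bile salt export pump, were 2.10, 1.97, 1.95 and 1.51-fold lower. Ust5r, an organic anion transporter of rat liver that was named for the size of its difference, was 9.25-fold lower. It read 6.14, 9.05, 9.24, 7.89 and 6.74 in NMF and 10.99, 10.82, 11.20, 11.41 and 10.70 in Caerulein, with no overlap (-3.21 ± 0.46, adjusted p = 1.01e-05).

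Cytochromes P450 of drug metabolism were lower in NMF wherever they were called, with 12 of 32 measured genes lower and 0 higher. The median log2 difference was -0.39. Cyp1a2, which oxidises aromatic amines and caffeine, had the smallest adjusted p of the whole comparison, 5.55e-17. It read 10.26, 9.65, 10.35, 9.84 and 10.30 in NMF and 12.86, 13.13, 12.93, 13.24 and 13.02 in Caerulein. Both groups were tightly spread and the Caerulein arrays lay inside the range of untreated liver (12.77 to 13.32), and the difference was 7.75-fold (-2.95 ± 0.15). Cyp1a1, a related gene with low levels here, overlapped between the groups (-0.38 ± 0.85, adjusted p = 0.881).

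Members of the rat Cyp2c and Cyp3a families that are higher in males were among the 12. Cyp2c13 read 10.10, 11.74, 11.89, 11.03 and 10.14 in NMF against 13.16, 13.02, 13.11, 13.10 and 13.14 in Caerulein, 4.37-fold lower (-2.13 ± 0.24, adjusted p = 1.13e-07). Cyp3a2 was 3.79-fold lower (-1.92 ± 0.35, adjusted p = 0.000459). In both genes the NMF arrays were spread over more than 1 log2 unit and the Caerulein arrays over less. Cyp2c11 was 3.11-fold lower with an adjusted p of 0.0146, and of 0.0603 without NMF 1 and, separately, without NMF 5. Cyp2e1, the enzyme that oxidises NMF, read 13.09, 13.19, 13.18, 12.59 and 13.08 in NMF and 13.24, 13.30, 13.36, 13.30 and 13.39 in Caerulein. All NMF arrays lay below all Caerulein arrays, but the difference of -0.29 ± 0.23 did not pass the test (adjusted p = 0.568).

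Other enzymes of drug metabolism changed singly. Fmo1, a flavin monooxygenase, had the largest difference of the genes lower in NMF. It read 5.89, 6.27, 7.87, 5.84 and 5.32 in NMF and 10.94, 10.66, 10.79, 11.02 and 10.37 in Caerulein. NMF 3 was the highest NMF array, and the difference was 22.9-fold with it (-4.51 ± 0.54, adjusted p = 5.57e-07) and 30.3-fold without it. Aldh1a1, which oxidises retinal and other aldehydes, was 4.39-fold higher (2.13 ± 0.46, adjusted p = 0.00252), whereas the mitochondrial Aldh1b1 was 4.88-fold lower (-2.29 ± 0.58, adjusted p = 0.0131). Of 17 aldehyde dehydrogenases and flavin monooxygenases measured, these 3 were called. Without NMF 3, Aldh5a1, succinate semialdehyde dehydrogenase, was called too (2.23-fold lower, adjusted p = 0.0257).

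Ugt2b7, a glucuronosyltransferase, showed a split among the NMF arrays, which read 8.65, 9.31, 6.12, 6.03 and 5.98. NMF 1 and NMF 2 were well above the other 3, and the Caerulein arrays read 4.93, 4.95, 4.38, 4.68 and 5.86. Caerulein 3 and 4 lay within the spike-in range, so no fold is given. The log2 difference was 2.26 ± 0.45 (adjusted p = 0.00124), and the adjusted p was 0.0532 when the spread was estimated from these 10 arrays alone. Of the 14 enzymes of glucuronidation and sulfation measured, the other called genes were the sulfotransferases Sult1c3, 3.05-fold lower, and Sult1e1, 2.09-fold lower. Of 21 genes of iron and heme handling, Blvrb, biliverdin reductase B, was 1.85-fold and Fech, ferrochelatase, 1.68-fold higher, 0 were lower, and the median was 0.09, with 11 differences above 0 and 10 below.

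Of 24 measured genes for making fatty acids, 8 were lower in NMF, 0 were higher and 16 were not called, with a median log2 difference of -0.62. Scd, the desaturase that makes oleate, read 8.30, 8.11, 7.77, 8.46 and 7.68 in NMF and 12.75, 11.76, 12.72, 10.79 and 10.69 in Caerulein. The NMF arrays were close together, and Caerulein 2, 4 and 5 lay below the untreated range of 12.01 to 13.27. The difference was 12.8-fold (-3.68 ± 0.37, adjusted p = 1.35e-08). Pklr, liver pyruvate kinase, was 5.72-fold lower, reading 8.28, 8.53, 8.64, 8.91 and 8.33 in NMF and 11.68, 11.25, 11.15, 10.68 and 10.52 in Caerulein (-2.52 ± 0.43, adjusted p = 0.000195). Fads2, a desaturase of polyunsaturated fatty acids, and Fasn, fatty acid synthase, were 4.27-fold and 3.58-fold lower, with adjusted p values of 0.000812 and 0.00349.

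Genes of cholesterol synthesis gave a count that rested on single arrays. Of 19 measured, 4 were lower in NMF and 0 higher, and the median log2 difference was -0.78, with 17 of 19 differences below 0. Without NMF 2, Caerulein 2 or Caerulein 4, 1 gene was called, without NMF 1, NMF 5 or Caerulein 1 there were 2, and without NMF 3 there were 3. Cyp51, lanosterol demethylase, was 2.74-fold lower (-1.45 ± 0.36) and kept its call throughout, with adjusted p values of at most 0.0403. Sqle, squalene epoxidase, read 7.98, 6.90, 9.52, 8.48 and 6.91 in NMF and 9.47, 10.63, 9.06, 9.64 and 9.26 in Caerulein, so that NMF 3 overlapped the Caerulein arrays. Its difference of -1.65 ± 0.47 had an adjusted p of 0.0301, and of 0.0576 to 0.108 without NMF 1, 2 or 5 or without Caerulein 2 or 4. Tm7sf2, a sterol reductase, was 2.12-fold lower (adjusted p = 0.0267) and lost its call without NMF 2, Caerulein 1, 2 or 4 (0.0538 to 0.0917), and Ebp, a sterol isomerase, was 1.88-fold lower (adjusted p = 0.0471) and kept its call with 1 array left out only without Caerulein 3 (0.0544 without NMF 3). Srebf1, which encodes the regulator SREBP1, did not differ beyond its spread (-0.56 ± 0.35, adjusted p = 0.435).

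In fatty acid oxidation 3 of 25 genes were higher in NMF and 0 lower, with a median of 0.16. Acot2, a mitochondrial thioesterase, was 2.89-fold higher (adjusted p = 0.00435), and Eci1, an enoyl-CoA isomerase, was 2.26-fold higher (adjusted p = 0.000892), although another probe set of Eci1 had the opposite sign. Acaa2, a thiolase, had an adjusted p of 0.0292 that became 0.0781 without NMF 3, and its call was also lost without NMF 1 or Caerulein 2, 3 or 4 (up to 0.0869). Cpt2, which was not called with all arrays, was called without NMF 3 (1.60-fold higher, adjusted p = 0.044), so that the count stayed at 3. Cpt1a, the gatekeeper of mitochondrial oxidation, read 11.66, 11.72, 11.94, 11.30 and 11.04 in NMF and 11.50, 11.49, 11.91, 11.58 and 11.30 in Caerulein. These values overlapped fully (-0.02 ± 0.28, adjusted p = 0.987).

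Bile acid synthesis was lower in NMF at the enzymes called, 3 of 16 measured, with 0 higher and a median of -0.33. Cyp7a1, the rate-limiting enzyme, read 7.13, 6.87, 8.63, 6.47 and 7.26 in NMF and 11.12, 11.97, 10.46, 10.49 and 10.33 in Caerulein. The groups did not overlap, but the 9 untreated livers ran from 7.61 to 12.12, so that they reached into both groups. The difference between the treated groups was 12.1-fold (-3.60 ± 0.77, adjusted p = 0.00251). Cyp8b1, the sterol 12-hydroxylase that sets the share of cholic acid, read 10.72, 10.04, 10.67, 7.10 and 10.07 in NMF and 12.17, 12.50, 11.75, 11.67 and 11.38 in Caerulein. NMF 4 was about 3 log2 units below the others, and the 4.52-fold difference (adjusted p = 0.00464) kept its call without that array, at -1.52 and an adjusted p of at most 0.0419. Untreated livers ran from 10.605 to 11.563 for Cyp8b1. NMF 1 and NMF 3 lay inside that range, and every Caerulein array but Caerulein 5 lay above it. Slc27a5, which activates bile acids for conjugation, was 2.17-fold lower (-1.12 ± 0.17, adjusted p = 4.86e-05).

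**Figure D3:**
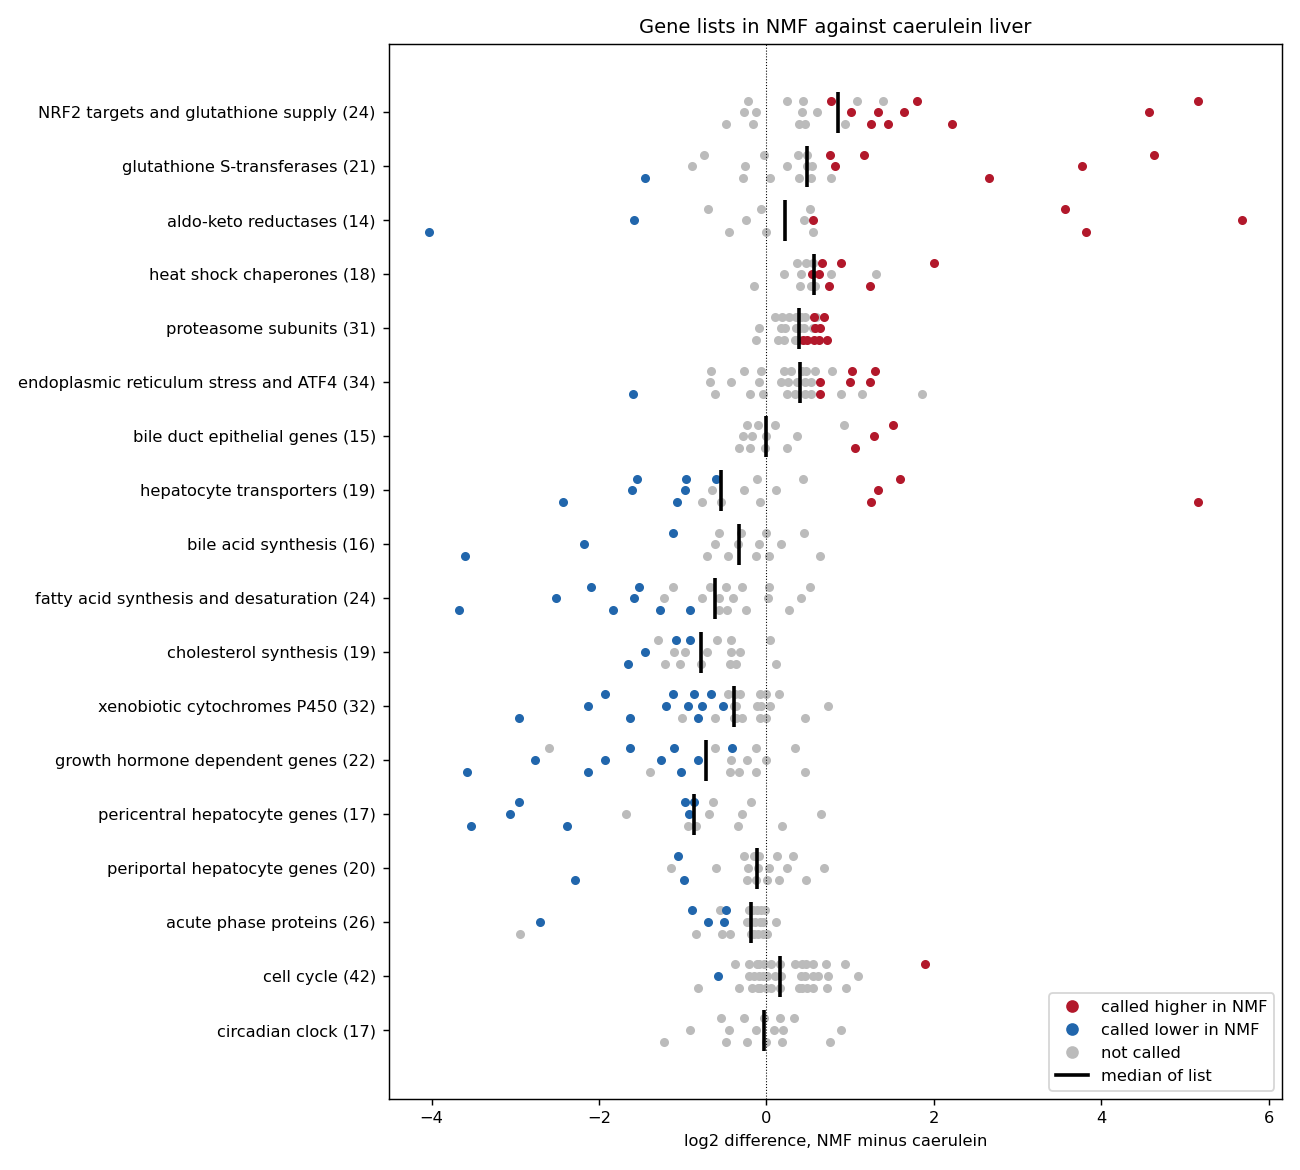
Log2 difference, NMF minus Caerulein, of each measured gene of 18 lists, with the number measured after the list's name; red genes were called higher in NMF, blue genes lower, grey genes were not called, and the black bar is the median of the list. The NRF2 list lies to the right with a median of 0.86, the pericentral list to the left at -0.86, and the circadian clock list around 0 with no call.

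Hepatocytes differ by their place between the portal and central veins, and the pericentral ones carry most CYP2E1. Of 17 measured genes of pericentral hepatocytes, 7 were lower in NMF and 0 higher, and the median was -0.86, the lowest of the lists plotted. Without NMF 3, 6 were lower, as Slc1a2, a glutamate carrier, had an adjusted p of 0.0428 with that array and 0.0691 without it. Rgn, regucalcin, read 8.87, 8.81, 9.99, 9.69 and 9.09 in NMF and 12.07, 12.19, 12.56, 12.27 and 12.68 in Caerulein, 8.36-fold lower (-3.06 ± 0.32, adjusted p = 3.02e-08). Slc13a3, a dicarboxylate carrier, was 11.6-fold lower, reading 6.20, 5.33, 6.83, 6.70 and 5.79 against 9.57, 10.05, 9.11, 10.48 and 9.30 (-3.53 ± 0.43, adjusted p = 7.46e-07). Oat, ornithine aminotransferase, was 5.21-fold lower (-2.38 ± 0.34, adjusted p = 1.21e-05). In these 3 genes the lowest Caerulein array was at least 1 log2 unit above the highest NMF array. Cyp1a2 and Slco1b2, which are among the 7, are also counted with the P450 genes and the transporters above.

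The most familiar pericentral enzymes were less clear. Glul, glutamine synthetase of the cells next to the central vein, read 11.18, 11.47, 10.76, 11.82 and 10.57 in NMF and 11.84, 12.24, 11.41, 12.09 and 11.43 in Caerulein, with overlap (-0.64 ± 0.27, adjusted p = 0.174). When limma was fitted to every probe set, another Glul probe set, almost as bright, was called lower (-0.997, adjusted p = 0.0251). A dimmer Glul probe set, at -1.445, was not called (adjusted p = 0.696). Cyp2e1 was not called, as given above. Of 20 periportal genes, 3 were lower and 0 higher, and their median was -0.11. These were Aldh1b1, Hsd17b13, a lipid droplet protein (2.08-fold), and Otc, ornithine transcarbamylase of the urea cycle (1.99-fold). Cps1, which starts the urea cycle, had a difference of -0.27 ± 0.11 (adjusted p = 0.185). Whether the pericentral and periportal lists differed from each other was not tested.

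Genes that depend on growth hormone were lower in NMF where called, 10 of 22 measured with 0 higher, and the median was -0.72. Without NMF 3 the count was 12, with Obp3 (adjusted p = 0.0315) and Serpina3n (0.0468) added. Car3, carbonic anhydrase 3 of hepatocytes, read 8.85, 10.75, 10.57, 10.15 and 8.93 in NMF and 13.50, 13.04, 13.54, 13.48 and 13.58 in Caerulein. The difference was 11.9-fold (-3.58 ± 0.60, adjusted p = 0.00015). Serpina6, the corticosteroid binding globulin, was 6.81-fold lower, with NMF arrays from 9.61 to 10.48 and Caerulein arrays from 12.55 to 12.79 (adjusted p = 0.00582). Both genes showed a narrow Caerulein group at the level of most untreated livers. Ghr, the growth hormone receptor, and Igfals, the binding partner of circulating IGF1, were 2.02-fold and 2.39-fold lower. Igf1 itself differed by -0.41 ± 0.12 (adjusted p = 0.0386), and that call was lost without NMF 1, 2 or 5 or without Caerulein 1, 3, 4 or 5, with an adjusted p of up to 0.128. Among the 10 genes, Cyp2c11, Cyp2c13, Cyp3a2 and Cyp2a2 are also among the P450 genes counted above.

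Among the genes named for the size of their difference alone, Stac3, Nrep and Avpr1a were lower in NMF. Stac3, known mainly from muscle excitation, was 17.5-fold lower (-4.13 ± 0.71, adjusted p = 0.00018), with NMF arrays from 5.15 to 6.74 and Caerulein arrays from 8.96 to 11.26. Nrep, a small regulatory protein, was 13.9-fold lower (-3.80 ± 0.53, adjusted p = 8.6e-06), reading 7.09, 6.77, 7.52, 7.22 and 5.69 in NMF and 11.08, 10.20, 11.56, 9.70 and 10.74 in Caerulein. For both, the Caerulein arrays reached below the lowest untreated liver, which stood at 10.32 for Stac3 and 10.77 for Nrep. Avpr1a, the vasopressin receptor of hepatocytes, was 8.37-fold lower (-3.07 ± 0.39, adjusted p = 1.69e-06).

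Higher in NMF among these were Anxa7, an annexin, and Acsm2, a medium-chain acyl-CoA synthetase. Anxa7 read 9.93, 9.84, 9.34, 9.87 and 9.98 in NMF and 7.39, 7.64, 7.76, 7.37 and 7.22 in Caerulein, 4.98-fold higher (2.32 ± 0.31, adjusted p = 4.92e-06). NMF 3 lay below the other 4 NMF arrays and far above the Caerulein arrays. Acsm2 read 10.35, 9.56, 10.96, 8.86 and 10.86 in NMF and 8.30, 7.53, 7.95, 6.41 and 7.58 in Caerulein, 5.90-fold higher (2.56 ± 0.53, adjusted p = 0.00189).

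The proteasome degrades tagged proteins. Of its 31 subunits measured, 9 were called higher in NMF, 0 lower and 22 not, with a median log2 difference of 0.39. The arrays of 18 did not overlap, against 9.0% of all genes without overlap. Psmb5, a catalytic subunit, read 12.17, 11.87, 11.83, 11.94 and 12.15 in NMF and 11.30, 11.31, 11.05, 11.30 and 11.38 in Caerulein, 1.65-fold higher (0.72 ± 0.15, adjusted p = 0.00144). Psmd6 of the regulatory particle was 1.56-fold higher (adjusted p = 0.00371). These differences were small but larger than the spread within either group. The count of called subunits was 5 without Caerulein 5, the lowest with 1 array left out, 8 without NMF 3, where Psmd14 lost its call (adjusted p of 0.0334 and 0.0509), and 14 when each array was centred on its median.

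Heat shock chaperones were higher at 7 of 18 measured genes and lower at 0, with a median of 0.57. Cct2, a subunit of the TRiC chaperonin, read 10.83, 10.60, 10.49, 10.99 and 10.92 in NMF and 9.44, 9.54, 9.58, 9.83 and 9.24 in Caerulein, 2.36-fold higher (1.24 ± 0.18, adjusted p = 9.89e-06). Cct3 and the co-chaperone Stip1 were 1.67-fold and 1.85-fold higher and kept their calls throughout. Hspa1a, the inducible HSP70, read 9.16, 9.57, 10.28, 8.56 and 6.53 in NMF and 7.42, 6.31, 6.84, 6.52 and 6.99 in Caerulein. NMF 5 lay among the Caerulein arrays and NMF 3 was the highest of all. Its 4.01-fold difference (adjusted p = 0.0334) was not called without NMF 3 (adjusted p = 0.117), nor without NMF 1, 2 or 4 or Caerulein 2, 3, 4 or 5. The Hspa1a mean lay at 0.97 in NMF and at -1.04 in Caerulein from the untreated mean (log2). By limma, neither group was called against untreated liver for this gene. The list count was 4 without Caerulein 2 and without Caerulein 4, and 5 without NMF 3, where Hspe1, mitochondrial HSP10, also lost its call (adjusted p of 0.0401 and 0.0818).

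Of 34 genes of endoplasmic reticulum stress and the ATF4 response, 6 were higher and 1 lower in NMF, with a median of 0.40. Without NMF 3, 7 were higher, with Phgdh, which starts serine synthesis, added (2.79-fold, adjusted p = 0.0151). Sdf2l1, a chaperone cofactor of the reticulum, was 2.36-fold higher, with NMF arrays from 11.53 to 11.81 and Caerulein arrays from 10.13 to 10.76 (adjusted p = 3.83e-05). Creld2 and Hsp90b1 were 2.00-fold and 2.04-fold higher, and Asns, asparagine synthetase, was 2.45-fold higher (adjusted p = 0.0117, and 0.0518 without NMF 5). The Creld2 mean lay at 0.54 in NMF and at -0.46 in Caerulein from the untreated mean (log2), with neither called by limma. Nupr1, a stress-induced nuclear protein, was 3.03-fold lower (-1.60 ± 0.39, adjusted p = 0.00976). Atf3 read 7.26, 8.07, 7.41, 6.63 and 5.98 in NMF and 5.19, 4.65, 5.45, 5.26 and 5.51 in Caerulein. The groups did not overlap, yet its difference of 1.85 ± 0.71 had an adjusted p of 0.135. Ddit3, which encodes CHOP, differed by 0.29 ± 0.37 (adjusted p = 0.763), and NMF 3, at 7.89, stood above the other 4 NMF arrays (6.92 to 6.96).

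Of 16 p53 targets, 2 were higher and 1 lower in NMF, with a median of 0.41, where 5.49% of all genes were called. Phlda3 was 2.17-fold higher (1.12 ± 0.25, adjusted p = 0.00464), and Fas, a death receptor, was 2.10-fold higher with an adjusted p of 0.0271 that lay between 0.0526 and 0.149 without NMF 1, 4 or 5 or Caerulein 3, 4 or 5. The Phlda3 mean lay at 0.68 in NMF and at -0.43 in Caerulein from the untreated mean (log2), with neither called by limma. Rprm was 5.54-fold lower, reading 5.64, 5.18, 6.39, 6.43 and 4.95 in NMF and 8.49, 8.22, 7.43, 8.57 and 8.23 in Caerulein (adjusted p = 2.42e-06). Neither Cdkn1a nor Mdm2, the usual reporters of p53, passed the test (0.39 ± 0.44 and 0.49 ± 0.29, adjusted p of 0.723 and 0.417).

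Cell cycle genes were called at 1 higher and 1 lower of 42 measured, close to the share of all genes. Without Caerulein 5 there was 1 more higher, Ccne1 (1.54-fold, adjusted p = 0.0483). Mcm6, a helicase subunit of DNA replication, read 7.33, 5.01, 5.25, 8.48 and 6.48 in NMF and 4.64, 4.44, 4.87, 4.19 and 4.92 in Caerulein. NMF 4 and NMF 1 were the highest, and the Caerulein mean lay within the range of the spike-in probe sets, so no fold is given. Its difference of 1.90 ± 0.50 had an adjusted p of 0.0181, and of 0.0656, 0.105 and 0.0509 without NMF 1, NMF 4 and Caerulein 4. The Mcm6 mean lay at 1.15 in NMF and at -0.75 in Caerulein from the untreated mean (log2), with neither called by limma. Ccna2, cyclin A2, was likewise highest in NMF 4, at 7.28 against 3.22 to 5.26 in the other NMF arrays, and was not called (adjusted p = 0.425). Ccne2 was lower with an adjusted p of 0.049, which was lost without any array but Caerulein 1 or 3 (0.0581 without NMF 3), and another of its probe sets had the opposite sign.

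Of 26 acute phase proteins, 5 were lower in NMF than in Caerulein and 0 higher, with 24 of 26 differences below 0 and a median of -0.18. The count of acute phase calls was 2 without NMF 5, and 3 without NMF 1, NMF 4, Caerulein 2, 4 or 5. It was 6 without NMF 3, where Serpina3n was added (adjusted p = 0.0468). Without Caerulein 3, Lcn2 was added and Fn1 was lost. Apcs, serum amyloid P, was 1.62-fold lower (-0.69 ± 0.12, adjusted p = 0.000225), and Cp, ceruloplasmin, was 1.85-fold lower (adjusted p = 0.000695). The call of Cp was lost with the mean of all its probe sets (adjusted p = 0.0718). When limma was fitted to every probe set, the other Cp probe sets were not called (-1.03 and -0.08, adjusted p of 0.371 and 0.939). Itih4 was 1.40-fold lower (adjusted p = 0.0137, and 0.0669 without NMF 5), and Fn1, fibronectin, 1.42-fold lower (adjusted p = 0.046), a call that NMF 3 alone among the 10 arrays could be left out without losing. A2m, the protease inhibitor that is the classic rat acute phase reactant, read 7.90, 9.84, 9.73, 7.67 and 6.95 in NMF and 9.19, 11.79, 10.24, 12.60 and 11.78 in Caerulein. The groups overlapped, since NMF 2 and NMF 3 were above Caerulein 1. The NMF mean lay at -0.46 and the Caerulein mean at 2.24 from the untreated mean (log2). The 6.50-fold difference had an adjusted p of 0.0311, and of 0.0761 to 0.107 without NMF 1, 4 or 5 or without Caerulein 2, 4 or 5.

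Lcn2, lipocalin 2, is secreted by the liver in inflammation, and it was widely spread among the Caerulein livers. It read 10.87, 11.19, 6.76, 12.62 and 11.56 in Caerulein and 8.03, 6.65, 7.18, 8.89 and 7.54 in NMF. Caerulein 1, 2, 4 and 5 were above the untreated range of 6.71 to 9.71 and Caerulein 3 was at its lower end. The difference of -2.94 ± 1.02 did not pass the test with all arrays (adjusted p = 0.0862). Without Caerulein 3, Lcn2 was called, 14.9-fold lower in NMF (-3.9, adjusted p = 0.0153). Of 34 chemokine and inflammatory signal genes, 4 were lower and 0 higher in NMF, with 19 differences below 0 and a median of -0.03. Cxcl12, a chemokine made by stromal and endothelial cells, was 2.64-fold lower with no overlap (-1.40 ± 0.22, adjusted p = 5.04e-05). Cxcl9, induced by interferon gamma, read 10.53, 7.84, 8.0, 7.36 and 9.48 in Caerulein and 6.32, 5.63, 6.40, 7.85 and 6.54 in NMF. Its 4.26-fold difference (adjusted p = 0.0325) was not called without NMF 1, 2, 3 or 5 or without Caerulein 1 or 5, with adjusted p values of 0.0567 to 0.141. Il6st, the shared receptor subunit of the interleukin 6 family, was 1.65-fold lower (adjusted p = 0.011, and 0.0654 without NMF 5), and Ccl5 is given with the lymphocyte genes below. The call of Il6st was also lost in a fit of the NMF and Caerulein arrays alone and with the mean of all its probe sets. When limma was fitted to every probe set, the other Il6st probe sets were lower in NMF but not called (adjusted p of 0.23 to 0.621). The list had 2 calls without NMF 1, NMF 2, NMF 5, Caerulein 1 or Caerulein 5, and 3 without NMF 3.

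**Figure D4:**
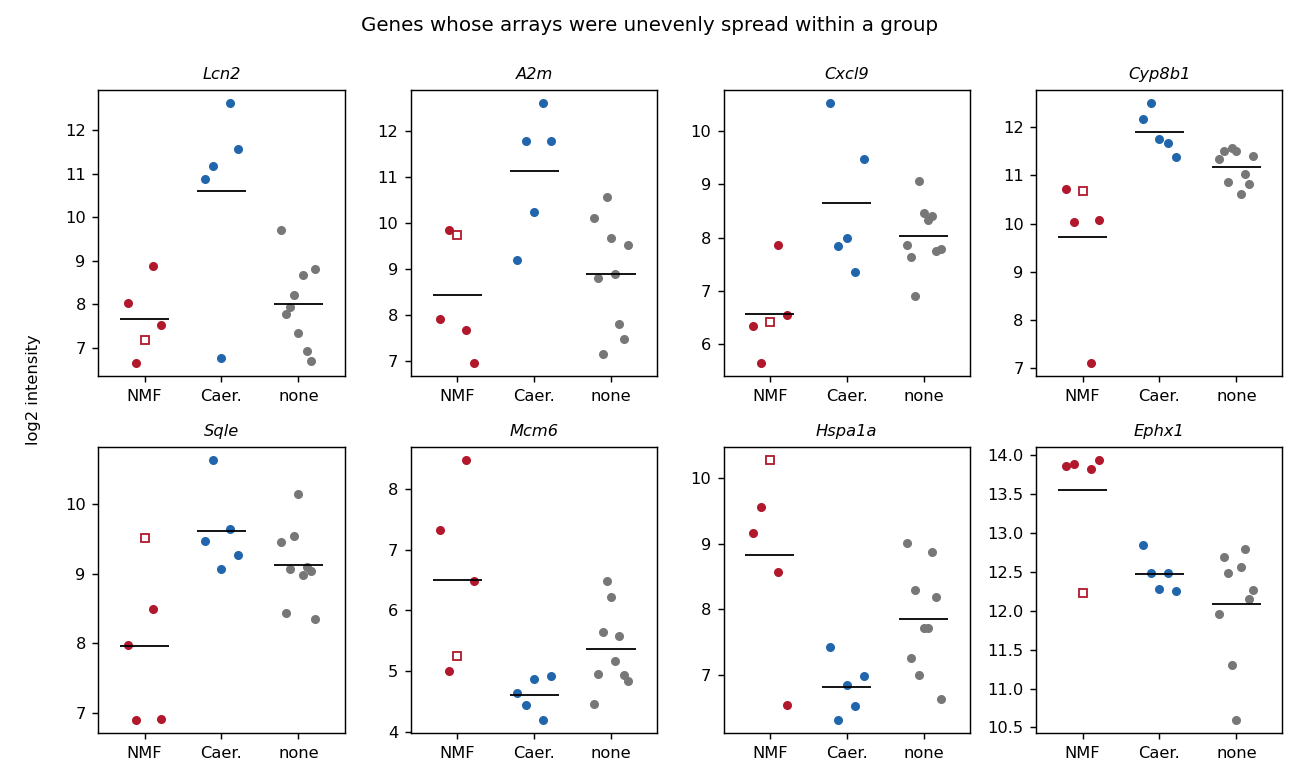
Log2 intensity of 8 genes whose arrays were unevenly spread within a group, in NMF, Caerulein (Caer.) and untreated (none) livers, with a bar at each group mean, a vertical axis per panel and NMF 3 as an open square. Lcn2 was above 10 in 4 of 5 Caerulein livers and at 6.76 in the other, and Ephx1 was above 13 in 4 of 5 NMF livers and at 12.23 in NMF 3.

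Markers of other liver cells were measured for their whole lists. Of 18 macrophage genes, 5 were lower and 1 higher in NMF, and the mean level of the list over its genes was 9.09 to 9.70 in NMF and 9.34 to 9.67 in Caerulein, so that the ranges overlapped. The 5 were Csf1r, C1qc, Cd5l, Clec4f and Ctss, each between 1.50-fold and 1.77-fold lower. Their count was 0 without Caerulein 2, 1 without NMF 1, NMF 2, NMF 5 or Caerulein 1, 2 without Caerulein 5 and 3 without NMF 3 (C1qc and Ctss lost) or Caerulein 4. Gpnmb, a glycoprotein of lipid-laden and phagocytic macrophages, was 4.46-fold higher, reading 9.74, 10.31, 10.01, 11.44 and 9.99 in NMF and 9.41, 8.08, 7.21, 8.32 and 7.67 in Caerulein (adjusted p = 0.00151). Its groups did not overlap, though Caerulein 1 came close to NMF 1.

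Bile duct epithelial genes were higher at 3 of 15 measured, Krt8 (2.84-fold), Epcam (2.43-fold) and Krt18 (2.08-fold), with adjusted p values of 0.000575, 0.0103 and 0.00685. Krt8 and Krt18 are also the keratins of hepatocytes. The mean level of the list was 7.40 to 7.66 in NMF and 7.0 to 7.40 in Caerulein, and its median gene difference was 0.00. The keratins that define bile ducts were not called, with differences of -0.01 ± 0.28 for Krt19 and -0.20 ± 0.20 for Krt7. The part of bile duct cells in the 3 calls was not tested.

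By limma, no neutrophil (11 measured), endothelial (16) or stellate cell and matrix gene (29) was called, and 0, 2 and 2 of them had an unadjusted p under 0.05. Without NMF 3, 1 stellate cell gene was called, Lrat, which stores retinol as esters (3.35-fold lower, adjusted p = 0.0235). Differences were below 0 for 9 of 11 neutrophil, 16 of 16 endothelial, 22 of 29 stellate cell and 20 of 20 lymphocyte genes, against 8039 of all 14217, and the medians were -0.28, -0.29, -0.23 and -0.33. The range of the mean level was 5.59 to 6.02 in NMF and 5.81 to 6.45 in Caerulein for neutrophil genes, 8.05 to 8.37 and 8.32 to 8.56 for endothelial genes, and 7.31 to 7.53 and 7.44 to 7.69 for stellate cell genes. Of 20 lymphocyte genes, Ccl5 was lower (2.08-fold, adjusted p = 0.0345), and that call was lost without NMF 1, 2 or 4 or Caerulein 1, 2 or 5 (up to 0.131), while Ms4a1, a B cell gene, was called without Caerulein 3 (1.77-fold lower, adjusted p = 0.0248). Of 11 erythroid genes, Alas2 was lower (2.45-fold, adjusted p = 0.048), and the call was lost without any 1 of the 10 arrays.

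The organ that Caerulein acts on is the pancreas, and acinar genes were checked in the liver RNA. The mean level of the 24 measured acinar genes was 4.95 to 5.70 in NMF, 5.43 to 6.01 in Caerulein and 5.44 to 5.89 in untreated liver, and 7 genes lay within the range of the spike-in probe sets in each treated group. Amy2a3, pancreatic amylase, was among these 7. Cpb1, a carboxypeptidase, was lower in NMF, at 7.90, 7.83, 7.77, 6.90 and 8.03 against 8.63, 8.53, 9.01, 8.60 and 9.43 in Caerulein (-1.15 ± 0.29, adjusted p = 0.0127, and 0.0657 and 0.0514 without NMF 4 and Caerulein 5). The Caerulein arrays of Cpb1 lay near the untreated range of 8.57 to 9.40. Of the 4 cholecystokinin and secretin receptors measured, 0 were called by limma and 2 had an unadjusted p under 0.05.

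Some groups of genes gave no call in this comparison by limma. None of 17 circadian clock genes was called (3 at an unadjusted p under 0.05), and Dbp, Per2 and Bmal1 differed by -0.01 ± 0.55, -0.03 ± 0.32 and -0.44 ± 0.30. None of 32 hepatocyte transcription factors and nuclear receptors was called (4 at an unadjusted p under 0.05), among them Hnf4a (-0.26 ± 0.22, adjusted p = 0.603). Without NMF 3, Nr3c1, the glucocorticoid receptor, was called (2.07-fold lower, adjusted p = 0.0168, against 0.0589 with all arrays). In one-carbon and methionine metabolism 4 of 23 genes were lower and 0 higher: Csad, Inmt, Gnmt (1.84-fold, adjusted p = 0.00933) and Pemt. Csad, which makes the taurine precursor, was 5.00-fold lower, with NMF arrays from 9.01 to 9.74 and Caerulein arrays from 11.59 to 11.94 (adjusted p = 1.13e-07). The adjusted p values of Inmt and Pemt were 0.0491 and 0.0448 with all arrays and 0.0577 and 0.0822 without NMF 3, and both calls were also lost without several other arrays, so that the list had 2 calls in 8 of the 10 comparisons with 1 array left out. Of 19 genes of glucose and glycogen metabolism, Ugp2, which makes UDP-glucose, was 1.78-fold higher, while Pklr, Ppp1r3b and Pygl were lower. The calls of Ppp1r3b and Pygl were lost without NMF 1, NMF 5, Caerulein 1 or Caerulein 3, which left Pklr, and that of Ppp1r3b also without NMF 2 or Caerulein 2. Of 24 interferon response genes 2 were lower, Psmb8 (1.95-fold) and B2m (1.26-fold), where 5.49% of all genes were called. B2m was not called without NMF 1, NMF 5 or Caerulein 1. Its call was also lost with quantile normalization, with each array centred on its median, and in a fit of the NMF and Caerulein arrays alone.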

How the data were processed

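Per the submitters' processing notes, RMA and the affy package were used, with no version given. What the authors deposited is 1 intensity per probe set and array, not logged, between 5.4 and 23152.1. RMA ends on log2 as a rule, and no source used here states a step back. The log2 was therefore taken here.

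Of 31099 probe sets, 57 were controls, 20826 had 1 gene symbol, 436 several and 9780 none. Symbols of 20758 were updated through a RefSeq gene table and 68 were kept. For the 4525 genes with several probe sets, the one with the highest mean over 39 arrays was used, leaving 14217 genes.

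limma 3.58.1 (R 4.3.3) fitted 1 mean per group to all 39 arrays, so that every group shared 1 estimate of the spread. P values are two-sided, adjusted by Benjamini-Hochberg over all genes, and called under 0.05. The procedure was tested on simulated data with noise drawn independently for each gene. It recovered 66 of 100 planted differences of 1 log2 unit and 98 of 100 of 2 log2 units, with 11 false calls. A gene that was not called may therefore still differ by 1 log2 unit. Folds are 2 to the power of the log2 difference. The number of arrays limits the precision; "biological rep" in the titles is the only statement that replicates were separate animals.

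Genes named were the 12 per direction with the largest difference among called genes without overlap, up to 5 called members per list, a fixed panel, and members of counts of 5 or fewer. Other list members named were picked after their values were seen and were not followed through the alternatives. The comparison, the 37 lists and the panel were chosen with earlier results of these data known. Alternatives varied the arrays, the replicate number as a block, scaling, log offset (16), a filter on the dimmest 30% of genes, probe sets, array weights and variance model, and left out each array in turn. Promoter sequences are RefSeq's, build GRCr8.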

Additional observations from a re-analysis of the deposited data

Results flagged for a closer look

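Over 286 groups of arrays tested (the named genes in each treated group), 17 had 1 array far from the other 4, and chance alone gives about 1 in 20, or 14.3. NMF 4 held 4 of them: Cyp8b1 at 7.10 (others 10.04 to 10.72), C1qc at 10.60 (10.19 to 10.28), Cpb1 at 6.90 (7.77 to 8.03) and Cyp2e1 at 12.59 (13.08 to 13.19). NMF 3, the array with a low GAPDH 5′ signal, held 3: Anxa7 at 9.34 (9.84 to 9.98), Ephx1 at 12.23 (13.82 to 13.94) and Ddit3 at 7.89 (6.92 to 6.96). NMF 5 also held 3: Il6st at 9.59 (10.31 to 10.57), Ugp2 at 12.19 (12.05 to 12.09) and Amy2a3, near background, at 4.19 (3.63 to 3.74). In NMF 2, Eci1 stood at 12.44 (11.96 to 12.05) and Igf1 at 12.56 (12.88 to 13.00).

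Among the Caerulein arrays, Car3 was low in Caerulein 2 at 13.04 (13.48 to 13.58), and Slco1a4 was low in Caerulein 5 at 10.22 (11.25 to 11.63). In Caerulein 3, Psmb5 was low at 11.05 (11.30 to 11.38) and Pemt at 11.76 (12.08 to 12.15). Abcc4 was high in Caerulein 4 at 5.15 (4.91 to 4.94).

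Of the 10216 probe sets with no symbol or several, which were tested apart and enter no gene list above, 64 were called between NMF and Caerulein by limma. These were 41 higher and 23 lower, or 0.626%.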

How the results depend on the processing

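The count of 781 genes called between NMF and Caerulein was 1782 with array weights, and ran from 513 to 734 with 1 array left out. The other alternatives gave 681 to 1057 calls, the highest, chosen after the data were seen, without the 7 arrays low in GAPDH 5′ signal. The per-gene test with unequal variances called 753 genes, of which 479 were shared. With the replicate number as a block, 786 genes were called and 702 shared. Deviations of same-numbered arrays correlated at 0.384, -0.1529, 0.1913, 0.3777 and 0.489; 4 of 5 were over 0.1, the pairs were taken only if all were, and 3 of 5 NMF arrays correlated best with their own number. The block lost the calls of Acss2, Akr1c3, Ccne2 and Psmd14 among named genes. For Caerulein against untreated liver, 0 calls became 5 with array weights and, with 1 array left out, 0 to 1. Of 115 named called genes, 72 kept their call in every alternative fitted by limma that held them (the dim filter left out 5), and 0 reversed; the unequal-variance test was not followed by gene; 30, the most, lost it without NMF 1. Of 25 called genes with several probe sets, Ccne2, Eci1, Fas and Srxn1 had 1 of opposite sign. Signals near the spike-in level (3.49 to 4.70, leaving out 1 probe set at 6.47) are poorly measured.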
